A study of Mus musculus with 2 samples.

Results

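Interferon-response macrophages were taken here as the macrophages of AB1-HA mesothelioma tumours that scored highest for 6 interferon-induced genes: Rsad2, Ifit1, Ifit2, Ifit3, Cmpk2 and Usp18. They were selected on measured values. A macrophage gate kept cells with at least 5000 unique molecular identifiers (UMIs, each standing for 1 captured RNA molecule), at most 10% mitochondrial UMIs, at most 2 UMIs of the collagen genes Col3a1 and Col1a2, at least 5 of 9 macrophage markers and no UMI of the T-cell gene Cd3e. The score of a gated cell was the mean over the 6 genes of the natural log of 1 plus UMIs per 10000, and the top 5% of gated cells, libraries pooled, were kept. This gave 553 interferon-response macrophages among 11069 gated macrophages and 20512 barcodes in all, with 292 in the anti-VEGF library and 261 in the control library.

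The tumours were grown from AB1-HA, a mouse mesothelioma line made from AB1 by adding an influenza haemagglutinin gene. The anti-VEGF group carried such tumours and received an antibody against VEGF, the main growth factor of blood vessels, and the control group carried such tumours and received a control antibody. The tumours were dissociated enzymatically, living leukocytes were sorted by CD45 and a dye that dead cells take up, and droplet single-cell libraries were made from them. There was 1 library per group, so no difference between the antibodies could be tested and every interval below covers counting error only. The dose, the timing, the strain and age of the animals and how many were pooled into a library are not given in the sources used here.

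Type I interferons signal through the receptor pair IFNAR1 and IFNAR2 and the kinases JAK1 and TYK2. These activate a complex that includes STAT2 and IRF9 and binds interferon-stimulated response elements in the promoters of antiviral genes. Type II interferon, made mainly by T cells and natural killer cells, acts through gamma-activated sites, and many genes answer both. In tumours, macrophages with this programme recur as a distinct state, and the chemokine Cxcl10 that they make draws T cells through its receptor CXCR3.

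Promoters of 4 genes that were among the 15 highest in these cells are printed because they hold the sequence that this signalling reads (RefSeq, build GRCm38.p6, the 250 bases before the transcript start, read 5′ to 3′ on the gene's strand). The capitals mark the 4-letter blocks of each match to GAAA, any 2 bases, GAAA, the core of the interferon-stimulated response element, or the same core read on the other strand as TTTC. The windows are chr12:26456453-26456702 (minus strand) for Rsad2, chr19:34640639-34640888 (plus strand) for Ifit1, chr4:156200819-156201068 (minus strand) for Isg15 and chr5:92348890-92349139 (minus strand) for Cxcl10.
Rsad2: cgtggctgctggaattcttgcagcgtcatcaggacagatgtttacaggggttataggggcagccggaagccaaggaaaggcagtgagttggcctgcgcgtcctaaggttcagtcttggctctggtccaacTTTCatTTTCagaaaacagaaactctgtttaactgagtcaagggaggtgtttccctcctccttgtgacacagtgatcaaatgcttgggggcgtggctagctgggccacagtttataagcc
Ifit1: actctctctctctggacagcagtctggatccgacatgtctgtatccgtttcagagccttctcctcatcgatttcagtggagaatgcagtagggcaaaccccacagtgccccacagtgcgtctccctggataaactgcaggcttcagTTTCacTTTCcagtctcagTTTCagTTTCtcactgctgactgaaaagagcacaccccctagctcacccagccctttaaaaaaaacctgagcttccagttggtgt
Isg15: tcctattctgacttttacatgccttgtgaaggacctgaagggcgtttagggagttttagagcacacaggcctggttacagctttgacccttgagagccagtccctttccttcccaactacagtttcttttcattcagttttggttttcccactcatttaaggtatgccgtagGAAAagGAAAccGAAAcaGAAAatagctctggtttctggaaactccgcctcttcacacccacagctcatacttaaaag
Cxcl10: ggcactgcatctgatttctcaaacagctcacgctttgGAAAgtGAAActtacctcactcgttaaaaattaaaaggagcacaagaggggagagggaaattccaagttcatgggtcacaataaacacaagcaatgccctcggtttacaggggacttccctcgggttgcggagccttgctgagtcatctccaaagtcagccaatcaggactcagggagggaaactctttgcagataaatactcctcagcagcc

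Rsad2 held 1 match, 120 to 111 bases before the start, and Ifit1 held 2 between 104 and 76 bases before it. Isg15 held 3 overlapping matches between 78 and 57 bases before the start, so that 4 blocks stand in a row, and Cxcl10 held 1 farther out, at 213 to 204. Among 13 of the 15 highest genes with a promoter in the table, 6 held the core (46.2%), and so did 936 of all 27025 genes in it (3.46%). Of these 13 genes 5 are score genes, which were chosen as interferon-induced and hold 3 of the 6, and Ifit3 and Ifit3b are near-copies, so nothing is read from the contrast with all genes. The gamma-activated site, spelled TTCNNNGAA, was in 2 of the 13 (15.4%) and in 2197 of all genes (8.13%). Both motifs were searched on both strands. Where a gene had several transcript starts, the window of each was searched and a match in any of them counted. A match is a description of these letters and not a bound site. The other 7 of the 13, Ifit2, Cmpk2, Ifi209, Isg20, Oasl1, Slfn1 and Phf11d, held no match to the response element core in these windows. Ifit2 and Isg20 were the pair with a gamma-activated site, and each also had at least 1 window without it. Cmpk2 (chr12:26469117-26479837) lies next to Rsad2 (chr12:26442743-26456452), and Ifit2 (chr19:34550550-34576534) lies in 1 cluster with Ifit3, Ifit3b and Ifit1 (chr19:34640889-34650009).

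The cut fell in a continuous range of scores. The lowest score inside was 0.322 and the highest outside was 0.320. The 10 cells just inside held 3 to 22 UMIs of the 6 genes (median 10.5), and the 10 cells just outside held 2 to 14 (median 7). The median score was 0.748 in the anti-VEGF members and 0.752 in the control members, with highest scores of 3.29 and 3.28. All 6 genes were found in 129 of 292 anti-VEGF members and in 126 of 261 control members, against 3 of 4728 other anti-VEGF macrophages and 3 of 5788 other control macrophages. A score of exactly 0 was held by 3076 gated cells of the anti-VEGF library (61.3%) and by 4031 of the control library (66.6%).

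**Figure D1:**
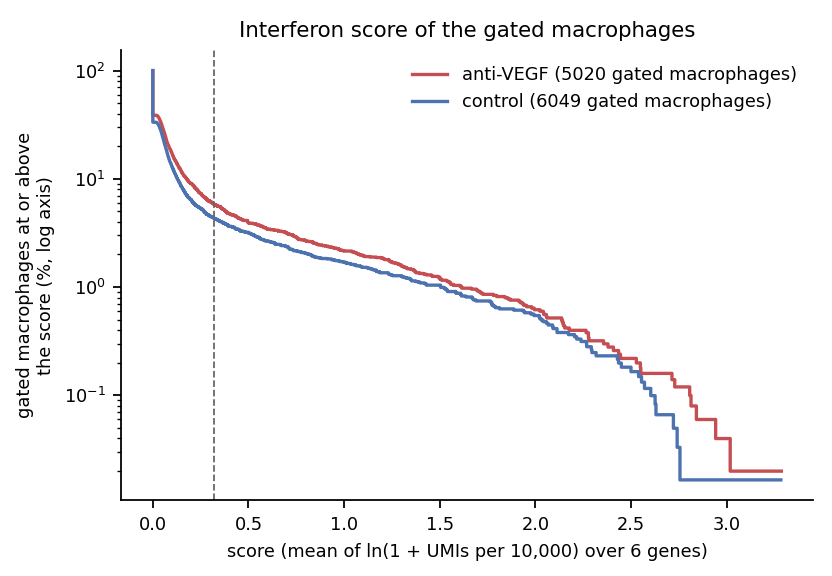
Share of gated macrophages at or above each value of the 6-gene score (log axis, in %), 1 line per library, with the dashed line at the lowest score of an interferon-response macrophage. The anti-VEGF line lies above the control line at most scores, and neither line has a step at the cut.

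The interferon-response macrophages passed the same macrophage gate as the cells they are set against, so the gate markers are no check of the label either way. Their median depth was 24267.5 UMIs against 24746 in the other macrophages of the anti-VEGF library, and 23933 against 25288 in those of the control library. The median mitochondrial share was 2.97% against 3.29% in the anti-VEGF library and 3.28% against 3.54% in the control library. C1qa, a subunit of complement C1q, stood at 3280 CPM in members and 2867 CPM in other macrophages of the anti-VEGF library, and at 4471 and 3217 CPM in those of the control library, where CPM is counts per 1000000, from UMIs summed over the cells named. Both populations had to hold at least 5 of the 9 gate markers, and over these the median log2 ratio of members to other macrophages was 0.19 in the anti-VEGF and 0.49 in the control library. The label's markers Rsad2, Ifit1, Ifit3 and Cmpk2 were used to choose the cells, so their height is no check of the label. In the marker lists of other cell types 4 genes were at least 2-fold higher in both libraries. They were the neutrophil genes G0s2 and Mmp8, the B-cell gene Ebf1 and the endothelial gene Kdr. Of G0s2, 3 cells held 41.7% of the anti-VEGF and 87.5% of the control members' UMIs. Mmp8 had 26 UMIs in anti-VEGF and 18 in control members, of which 3 cells held 46.2% and 66.7%. The summed level of the plasmacytoid dendritic cell list was 154 CPM in members and 140 CPM in other macrophages of the anti-VEGF library, and 176 and 141 CPM in those of the control library. Tcf4 gave 142 and 124 CPM of this in the anti-VEGF library and 166 and 124 CPM in the control library, while Siglech, the defining marker, had 0 and 1 UMI in the members of the anti-VEGF and control library. The natural killer list summed to 0.337 CPM in members and 5.32 CPM in other macrophages of the anti-VEGF library, and to 48.9 and 31.5 CPM in those of the control library, where 209 of the members' 380 UMIs were of Gzma. The T-cell list, whose gene Cd3e the gate kept out, summed to 2.58 CPM in members and 3.41 CPM in other macrophages of the anti-VEGF library, and to 5.54 and 5.88 CPM in those of the control library. The part of captured cells or free RNA of these types in the members' values was not tested.

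Interferon-response macrophages made up 5.82% of gated macrophages in the anti-VEGF library (292 of 5020, exact 95% interval 5.19 to 6.50%) and 4.31% in the control library (261 of 6049, 3.82 to 4.86%). The ratio of the shares was 1.35 (1.14 to 1.60), and it lay between 1.18 and 1.47 under every other gate, cut and score that was tried. At a score of at least 1 the shares were 2.15% (1.77 to 2.59%) and 1.70% (1.39 to 2.06%), a ratio of 1.26 whose interval, 0.956 to 1.67, includes 1. There is 1 library per group, so animal-to-animal spread is unknown and the difference was not tested.

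The cells were found across macrophage subsets, with some more often than others. Among gated macrophages with a UMI of Ly6c2, a surface protein of recently recruited monocytes, 20% were interferon-response cells in the anti-VEGF library (25 of 125, 13.4 to 28.1%) and 8.16% in the control library (8 of 98, 3.59 to 15.5%), after each cell was thinned to 5000 UMIs. Among macrophages without one the shares were 5.45% and 4.25%. Ly6c2 is itself known as an interferon-induced gene, so this split is not independent of the choice by score. Macrophages with a UMI of Mrc1, the mannose receptor, were members at 6.21% (5.21 to 7.34%) against 5.54% (4.74 to 6.43%) of those without in the anti-VEGF library, while in the control library 5.79% of those with one (4.95 to 6.73%) and 3.07% of those without (2.51 to 3.72%) were members. For Arg1, which encodes arginase, the shares were 5.73% against 6.26% in the anti-VEGF library and 4.81% against 3.63% in the control library. Macrophages with a UMI of H2-Aa, an MHC class II chain, were members at 8.42% against 4.58% of those without in the anti-VEGF library, and at 5.22% against 3.78% in the control library. Cells with a UMI of the division genes Mki67 or Top2a were members at 5% against 6.15% in the anti-VEGF library and at 4.38% against 4.27% in the control library.

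Of 12907 genes measured, 273 (2.12%) were at least 2-fold higher in interferon-response than in other macrophages in both libraries, and 240 (1.86%) were at least 2-fold lower in both. Every gene of this contrast was measured in the cells that the score selected, so the values describe the cells and test nothing. Of the 273 higher genes, 98 were in the interferon lists or among the 6 score genes, and of the 240 lower genes 0 were. Over 116 interferon-list genes outside the score, 92 were higher. The log2 ratios of the 116 had a median of 1.64 in the anti-VEGF and 1.82 in the control library. Over all genes the medians were −0.06 and −0.05. The count of lower genes depended on the filter on low counts: with genes limited to the 10704 with at least 10 UMIs expected in the members of each library, an alternative added after seeing the data, 210 were higher and 74 lower.

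The score genes were far higher in the selected cells, as the choice of cells requires. Rsad2, which makes the antiviral enzyme viperin, stood at 653 CPM in members and 5.10 CPM in other macrophages of the anti-VEGF library, and at 463 and 2.23 CPM in those of the control library. Ifit1, whose protein binds viral RNA caps, stood at 274 and 3.52 CPM in the anti-VEGF library and at 299 and 2.95 CPM in the control library. Usp18, the protease that removes ISG15 and damps the receptor, stood at 183 CPM in members and 11.6 CPM in other macrophages (anti-VEGF) and at 198 and 9.30 CPM (control). Close relatives outside the score went with them: Ifit3b was 140-fold and 124-fold higher, and Ifit1bl1 was 175-fold and 110-fold higher, in the anti-VEGF and control library. The list of 3 such relatives had 89 UMIs in other macrophages of the anti-VEGF and 105 in those of the control library, so these ratios rest on few UMIs. Reads of such near-copies could be split between them, and the annotated span of Ifit1bl1 overlaps Ifit3b and Ifit1, so the values of single Ifit genes are uncertain.

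**Figure D2:**
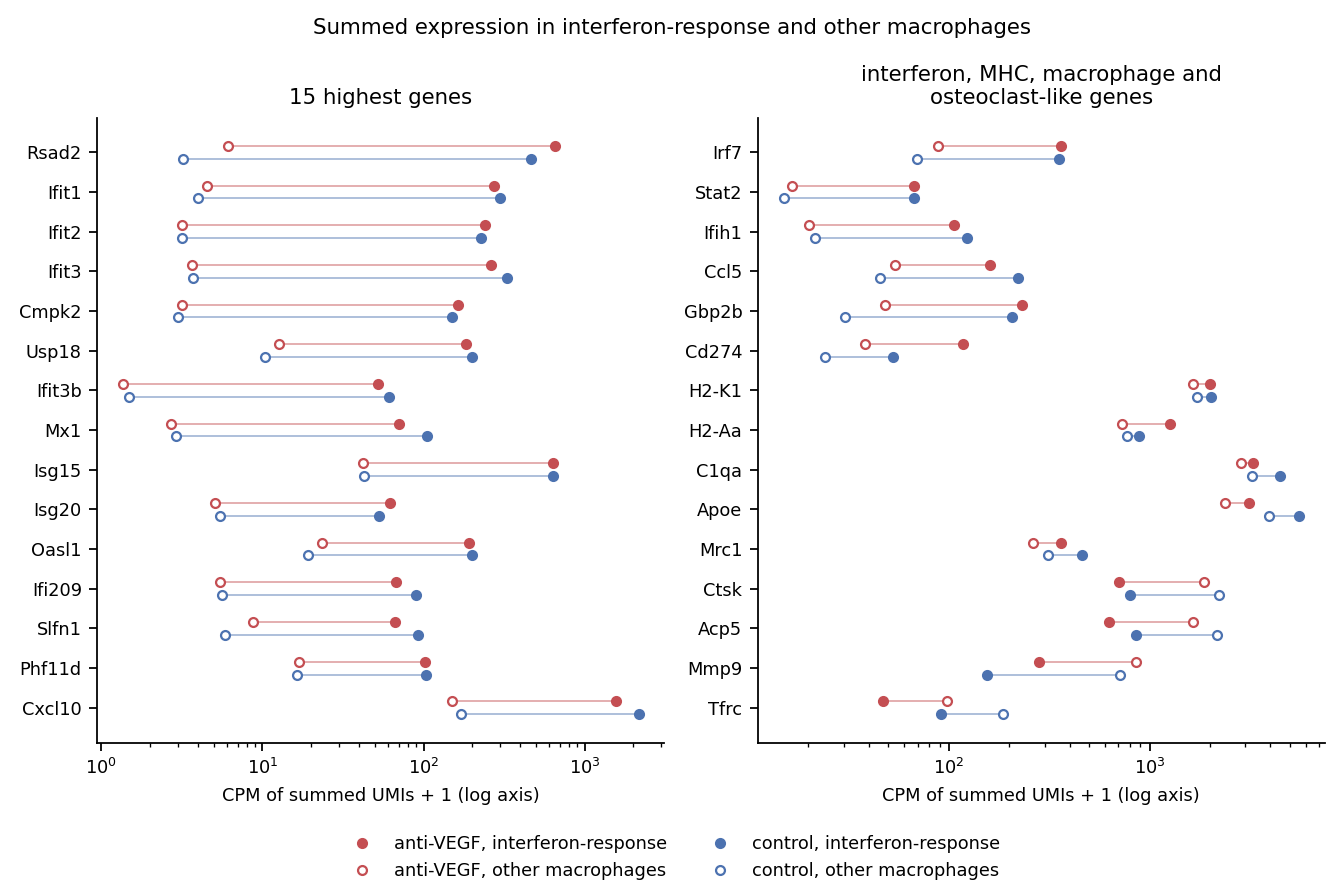
CPM plus 1 of interferon-response and other macrophages on log axes, with 1 row per gene, for the 15 highest genes (left panel) and for interferon, MHC, macrophage and osteoclast-like genes (right panel). Filled symbols are interferon-response macrophages, open symbols are other macrophages, and colours separate the anti-VEGF and control libraries. The gap is widest for the Ifit genes, Rsad2 and Cmpk2, while Acp5, Ctsk and Mmp9 run the other way.

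The sensing and signalling genes were higher too, by less. Ddx58 and Ifih1, which encode the RNA sensors RIG-I and MDA5, were 5.52-fold and 5.54-fold higher in the anti-VEGF library and 5.90-fold and 5.98-fold higher in the control library. Of 13 sensor genes 8 were at least 2-fold higher in both libraries, and Mavs, the adaptor below RIG-I and MDA5, had ratios of 1.19 and 1.15. Irf7, the factor that amplifies type I interferon production, stood at 362 CPM in members and 87.1 CPM in other macrophages of the anti-VEGF library, and at 355 and 68.3 CPM in those of the control library. Transcription factor genes called included Irf7, Stat2 (4.24-fold and 4.69-fold) and the AP-1 family gene Batf2. Irf9, which encodes a partner of STAT2, stood at 1.55-fold in both libraries, and Irf3, which is activated without new synthesis, at 0.782 and 0.838.

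The receptor genes differed little. None of 8 measured receptor and kinase genes was 2-fold higher, and 2.12% of all genes measured were, so that count says little by itself. Ifnar1 had ratios of 1.11 and 1.10, Ifnar2 of 1.11 and 1.14, Ifngr1 of 0.907 and 0.958 and Jak1 of 1.13 and 1.27. Of the feedback genes, Socs1, an inhibitor of JAK kinases, was 2.53-fold and 2.67-fold higher, while Ptpn6 stood at 0.987 and 1.13.

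The antiviral effectors formed the broadest block. Isg15, a ubiquitin-like protein attached to other proteins, stood at 637 CPM in members and 41.1 CPM in other macrophages of the anti-VEGF library, and at 638 and 41.4 CPM in those of the control library, so the ratios were 15.5 and 15.4. A UMI of Isg15 was found in 83.2% of anti-VEGF and 85.1% of control members after thinning (95.9% and 97.3% at full depth), against 15% and 14.3% of other macrophages (42.7% and 41.0% at full depth) and 11.9% and 10.9% of collagen-positive cells (37.6% and 39.3%). The collagen-positive cells had median depths of 43450 and 43274.5 UMIs before thinning. Of the 17 genes of ISG15 conjugation, ubiquitin ligases and PARP enzymes, 16 were called.

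Mx1, a GTPase that blocks viral nucleocapsids, stood at 69.7 and 1.70 CPM in members and other macrophages of the anti-VEGF library and at 104 and 1.91 CPM in those of the control library, ratios of 40.9 and 54.6. All 15 immunity-related GTPase and guanylate-binding genes measured were called, among them Irgm1 (4.66-fold and 5.16-fold) and Gbp5 (7.07-fold and 9.48-fold), which act on vacuoles of intracellular pathogens. All 11 p200-family genes, which include DNA sensors and are near-copies of one another, were called as well, with Ifi209 at 14.9-fold and 19.2-fold. So were all 7 oligoadenylate synthetase genes measured, 6 of 7 Schlafen genes and all 8 genes of the Phf11 and Sp100 group. Of 24 restriction factors 15 were called, and Ifi27 ran against the rest at 0.678 and 0.618.

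**Figure D3:**
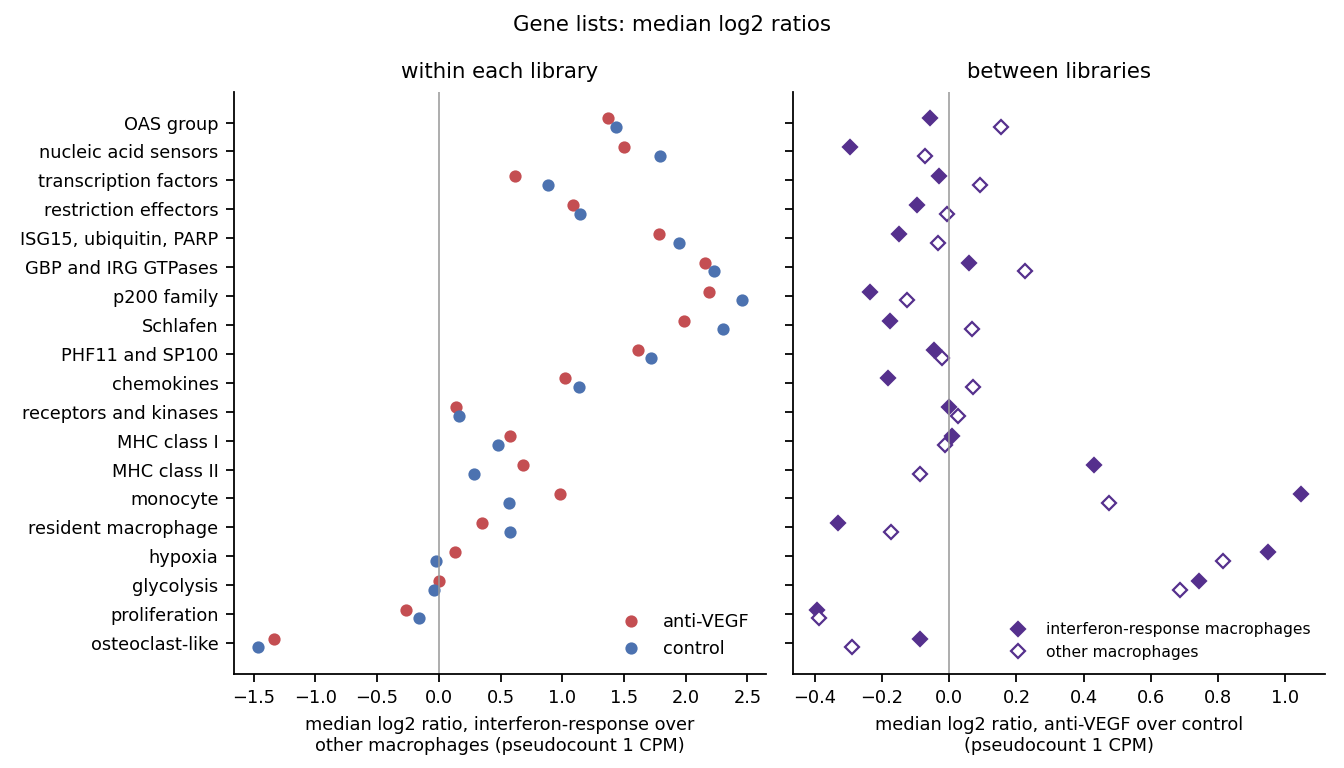
Median log2 ratio of 19 gene lists (pseudocount 1 CPM), for interferon-response over other macrophages with 1 dot per library (left) and for anti-VEGF over control with filled diamonds for interferon-response and open diamonds for other macrophages (right). Of the lists drawn, the GTPase, p200 and Schlafen lists stand farthest to the right in the left panel and the osteoclast-like list farthest to the left. In the right panel the interferon lists lie near 0, and of the lists drawn the MHC class II and monocyte diamonds are farthest apart between the populations.

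Of 10 chemokine genes 5 were called, Cxcl10, Cxcl9, Ccl5, Ccl12 and Ccl4. Cxcl10 stood at 1555 CPM in members and 149 CPM in other macrophages of the anti-VEGF library, and at 2161 and 170 CPM in those of the control library, with ratios of 10.4 (10.2 to 10.7) and 12.7. It was uneven, with a UMI in 52.7% of anti-VEGF and 68.2% of control members after thinning (66.1% and 79.7% at full depth), against 17.2% and 20.3% of other macrophages (32.2% and 37.1%) and 10.7% and 19.1% of collagen-positive cells (25.5% and 40.2%). Cxcl9, a ligand of the same receptor that answers mainly type II interferon, was 2.62-fold and 3.46-fold higher. Ccl12 was 2.28-fold and 2.69-fold higher and Ccl4 2.21-fold and 2.46-fold. Ccl5 was 2.99-fold and 4.97-fold higher, and 3 cells held 35.6% of its UMIs in anti-VEGF and 60.2% in control members. Ccl2, the main monocyte-recruiting chemokine, was not called, with 1597 CPM in members and 1208 CPM in other macrophages of the anti-VEGF library and 1818 and 1008 CPM in those of the control library. Cxcl16, held on the cell surface, had ratios of 1.13 and 1.25.

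Of 12 cytokine and death genes 5 were called. Tnfsf10, the death ligand TRAIL, stood at 11.4 CPM in members and 0.513 CPM in other macrophages of the anti-VEGF library, and at 16.2 and 0.762 CPM in those of the control library, 22.3-fold and 21.3-fold apart. Il27 was 4.52-fold and 7.19-fold higher, Il15, which sustains natural killer and memory T cells, 2.92-fold and 3.34-fold, its receptor chain Il15ra 3.57-fold and 3.97-fold, and Il18 2.18-fold and 2.33-fold. Of 17 genes downstream of NF-kB only Ccl4 was called, with Tnf at 1.40 and 1.95 and Nfkbia at 1.06 and 0.949. The 18 immediate early and heat-shock genes, which tissue digestion can induce, had medians of 0.20 and 0.15 on the log2 scale. None was called, where 2.12% of all genes measured were called higher and 1.86% lower.

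Ifnb1, which encodes interferon beta, was held by 11 gated macrophages in the anti-VEGF library, 9 of them interferon-response cells, and by 10 in the control library, 4 of them interferon-response cells. In the anti-VEGF library 51 of the 53 Ifnb1 UMIs of gated macrophages lay in those 9 cells, 1 of which held 24. In the control library 25 of 49 lay in those 4 cells, 1 of which held 20. At full depth the share of cells with an Ifnb1 UMI was 3.08% of anti-VEGF members (1.42 to 5.77%) and 0.0423% of other macrophages of that library, and it was 1.53% of control members (0.419 to 3.88%) and 0.104% of other macrophages of that library. The Ifnb1 cells were not always the highest in score: 6 of 9 in the anti-VEGF and 1 of 4 in the control library scored at least 1. Ifng, which encodes type II interferon, had 0 UMIs in anti-VEGF members and 4 in control members, all in 1 cell, against 232 and 272 UMIs in all barcodes of those libraries.

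Genes that answer type II interferon were also higher. Of 19 measured, 12 were called, with medians of 1.27 and 1.29 on the log2 scale. Cd274, the checkpoint ligand PD-L1, stood at 117 CPM in members and 37.2 CPM in other macrophages of the anti-VEGF library, and at 51.6 and 23.2 CPM in those of the control library. Nos2, which makes nitric oxide, stood at 44.3 and 9.50 CPM in the anti-VEGF library and at 9.14 and 1.75 CPM in the control library. Lgals9 and Cd40 completed the 3 checkpoint and costimulatory genes called of 14, at 2.47-fold and 2.58-fold for Lgals9 and 3.43-fold and 4.24-fold for Cd40.

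All 20 class I genes measured were above 0 on the log2 scale in both libraries, with medians of 0.57 (anti-VEGF) and 0.48 (control). The main chains differed little. H2-K1 had ratios of 1.21 and 1.18 and B2m of 1.26 and 1.22. The 4 called of 20 class I genes were the peptide transporter Tap1 (2.03-fold and 2.32-fold), the non-classical H2-T22 (2.25-fold in both) and H2-T24 (3.04-fold and 3.25-fold), and Nlrc5, the activator of class I transcription (2.85-fold and 2.68-fold). Among the 10 class II genes none was called, but all 10 were above 0 in both libraries, with medians of 0.68 and 0.28. For the top 2% of the score the control median was −0.12. H2-Aa stood at 1268 CPM in members and 728 CPM in other macrophages of the anti-VEGF library, and at 888 and 768 CPM in those of the control library, ratios of 1.74 and 1.16.

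Kdr, which encodes VEGF receptor 2 and stood in the endothelial marker list, was higher in the selected cells. It had 22.8 CPM in members and 5.24 CPM in other macrophages of the anti-VEGF library, and 31.7 and 5.29 CPM in those of the control library, ratios of 4.34 (3.70 to 5.08) and 5.99 (5.18 to 6.90). Its UMIs were spread over 92 anti-VEGF and 103 control members, with no more than 13 in a cell. The other endothelial markers were near 0: Pecam1 had 1.23 CPM in anti-VEGF and 1.16 CPM in control members, Cdh5 had 0.673 and 0.258, and Cldn5 had none in either. Kdr was described because the antibody acts on the ligand of its product, a choice made after its values were seen.

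Most monocyte and resident macrophage genes leaned higher in the members. On the log2 scale 10 of 15 monocyte genes were above 0 in both libraries and 1 was below in both. Their medians were 0.98 (anti-VEGF) and 0.57 (control). Of 14 resident macrophage genes 12 were above 0 in both and 0 below in both, with medians of 0.35 and 0.58. For the top 2% of the score the resident median was −0.14 in the anti-VEGF library. Of 15 monocyte genes 4 were called: Ly6c2 (28.1 CPM in members and 6.15 CPM in other macrophages of the anti-VEGF library, 8.11 and 4.03 CPM in those of the control library), Plac8, Ms4a4c and Ly6a. Ly6c2, Ly6a and Ms4a4c are themselves known as interferon-induced genes, and Ccr2, the receptor that brings monocytes from blood, had ratios of 1.17 and 1.16. A UMI of Ly6c2 was found in 8.56% of anti-VEGF and 3.07% of control members after thinning (13.4% and 6.13% at full depth), in 2.12% and 1.55% of other macrophages (4.48% and 3.32%) and in 0.606% and 0.909% of collagen-positive cells (1.70% and 1.82%). Plac8 was found in 89.9% and 85.8% of collagen-positive cells and Ly6a in 24.1% and 17.1% of them after thinning, and the part of free RNA in their levels was not tested. Of 14 resident macrophage genes the scavenger receptor Cd163 (2.81-fold and 2.86-fold) and the phosphatidylserine receptor Timd4 (3.34-fold and 3.50-fold) were called. For Timd4, 3 cells held 60.8% of the 79 UMIs of anti-VEGF members and 52.8% of the 36 UMIs of control members. For Cd163, 3 cells held 68.6% of the anti-VEGF and 60.2% of the control members' UMIs, and for the top 2% of the score its log2 ratio was −1.54 in the anti-VEGF library.

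Osteoclast genes were among the lowest. Acp5, the tartrate-resistant acid phosphatase, stood at 628 CPM in members and 1650 CPM in other macrophages of the anti-VEGF library, and at 852 and 2156 CPM in those of the control library. Ctsk, the collagen-cleaving cathepsin K, stood at 704 and 1863 CPM in the anti-VEGF library and at 794 and 2228 CPM in the control library. Mmp9, a gelatinase, had ratios of 0.327 and 0.217, and Ocstamp and Dcstamp, which drive cell fusion, had 0.322 and 0.282 and 0.380 and 0.339. Of 8 osteoclast-like genes 5 were called lower. Tfrc, the transferrin receptor that takes up iron, had ratios of 0.476 and 0.483. None of 23 proliferation, 22 hypoxia and 16 glycolysis genes was called in either direction. Of all genes measured 2.12% were called higher and 1.86% lower, so nothing is read from that. The proliferation median was −0.27 and −0.16 on the log2 scale, against −0.06 and −0.05 over all genes. Of the 23 proliferation genes 20 were below 0 in both libraries.

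Cells rich in these genes were scarcer among the members. Cells with at least 10 thinned UMIs of Acp5 and Ctsk were 7.19% of anti-VEGF members and 14.7% of other anti-VEGF macrophages, and 9.96% of control members and 22.2% of other control macrophages. An alternative added after seeing the data left out cells with at least 50 UMIs of the 2 genes together. The osteoclast-like median then became 0.049 on the log2 scale in the anti-VEGF library, against −1.34 with them. Both genes are in that list, so a smaller difference is built into this choice. In the control library the median was −1.46 in the main setting and ran from −1.93 to −0.051 over all alternatives. The last of these values leaves little of the difference there too. Without those cells the count of genes 2-fold lower was 104, against 240.

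Within the population the interferon genes did not climb alike. From the lower 90% of gated macrophages through the next 5% and the 4 score bands (0.32 to 0.5, 0.5 to 1, 1 to 2 and above), Isg15 stood at 34.5, 144, 293, 505, 911 and 1654 CPM in the anti-VEGF library, and at 34.7, 192, 302, 394, 1031 and 1531 CPM in the control library. Cxcl10 stood at 134, 388, 500, 649, 2599 and 5885 CPM in the anti-VEGF library and at 156, 471, 866, 848, 3942 and 6185 CPM in the control library. Both genes were thus already raised in the 5% below the cut, and most of the gain of both lay above a score of 1. From the 0.32 to 0.5 band to the 0.5 to 1 band of the control library, Isg15 rose from 302 to 394 CPM. Cxcl10 went from 866 to 848 CPM there.

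The band above 2 held 31 anti-VEGF and 33 control cells and 38.4% and 42.5% of the members' UMIs of the 6 score genes. Ccl5 stood at 587 and 624 CPM in that band and at 83.9 and 206 CPM at scores of 0.5 to 1, but a single cell held 39.8% of its UMIs in the anti-VEGF and 65.9% in the control top band, and 31.6% and 88.4% at scores of 0.5 to 1. For Cxcl10 a single cell held 18.5% and 8.28% in the top band. Cxcl9 was lower in the top band, at 143 and 274 CPM from 8 and 11 cells with a UMI, than in the band below it, at 360 and 353 CPM. Il1b stood at 116 CPM in the anti-VEGF and 269 CPM in the control top band, below the 511 and 352 CPM of the members as a whole. Apoe, a lipid carrier of mature macrophages, went down the bands in the anti-VEGF library, with 3813, 3419, 2393 and 1568 CPM, while in the control library it stood at 6108, 4954, 5624 and 5584 CPM.

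**Figure D4:**
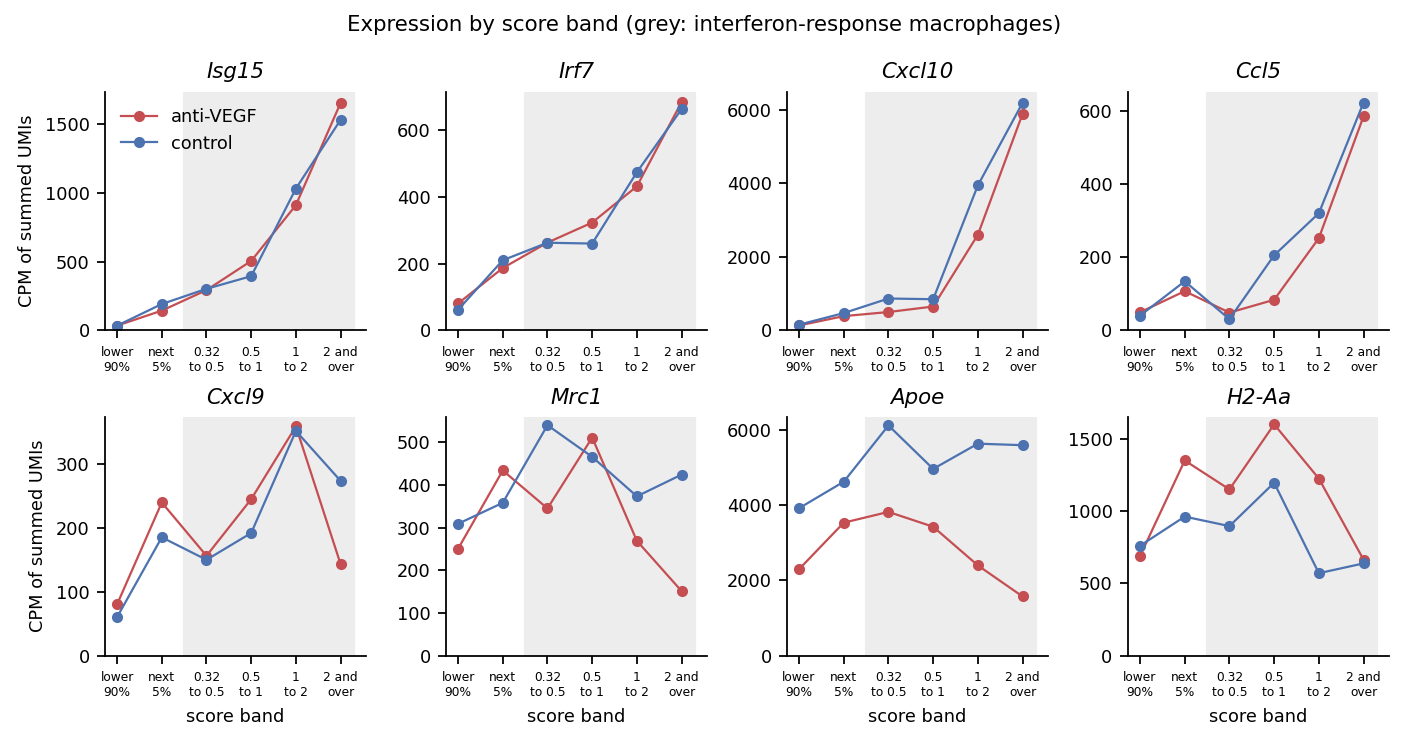
CPM of 8 genes by score band, 1 panel per gene and 1 line per library; grey marks the bands of the interferon-response macrophages, and the first 2 positions lie below the cut. Isg15 climbs at each step in both libraries, Cxcl10 climbs most above a score of 1, and Cxcl9 is lower in the highest band than in the band before it.

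The anti-VEGF members were next set beside the control members, gene by gene. Of 10415 genes measured, 191 (1.83%) were at least 2-fold higher and 138 (1.33%) at least 2-fold lower in anti-VEGF members, and the median over all genes was −0.09 on the log2 scale. None of these differences was tested. The interferon lists moved little: over the genes outside the score the median was −0.09 in members and 0.01 in other macrophages, and 2 genes were 2-fold higher (Ifitm1 and Ifitm6) and 1 was lower (Ifi206).

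Single interferon genes went either way. Rsad2 was 1.41-fold higher in anti-VEGF members (1.35 to 1.47) and 2.29-fold higher in the other macrophages of that library. Ifit3 stood at 0.791 (0.747 to 0.837) in members and 0.985 in other macrophages, Mx1 at 0.670 and 0.894, and Cxcl10 at 0.720 (0.704 to 0.736) and 0.878. Isg15 stood at 0.998 in members and 0.994 in other macrophages, and Irf7 at 1.02 and 1.28. The other score genes stood at 1.06 and 1.00 (Ifit2), 1.09 and 1.11 (Cmpk2), 0.918 and 1.19 (Ifit1) and 0.926 and 1.25 (Usp18) in members and other macrophages. Members of both libraries were taken at 1 threshold on the mean of the 6 score genes, so the values of these 6 in members are bound by the choice of cells.

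**Figure D5:**
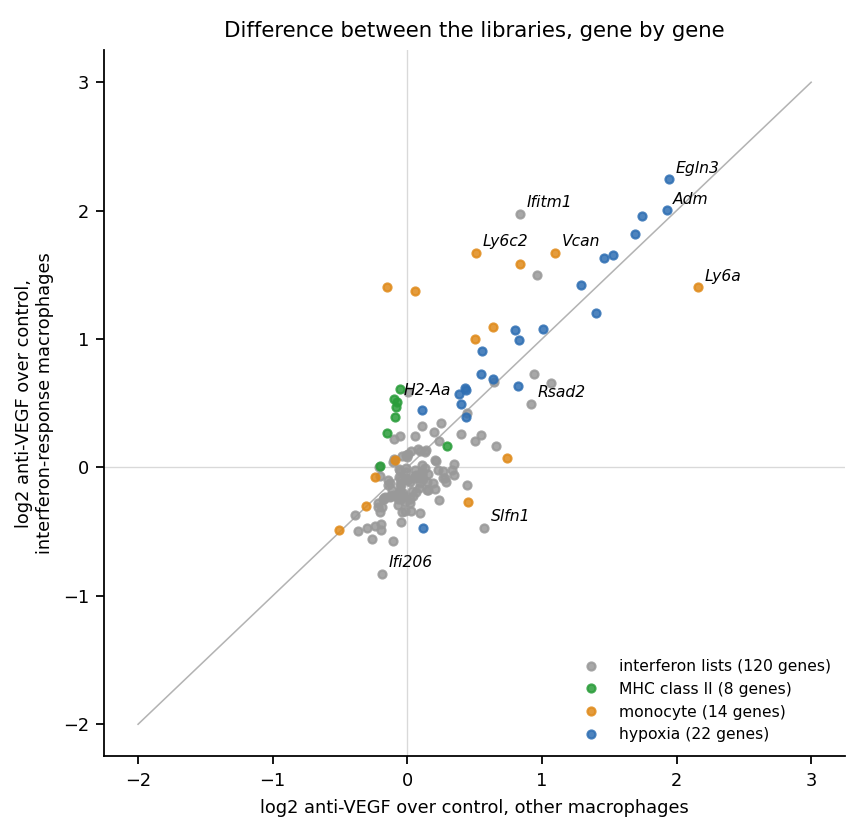
Log2 ratio of anti-VEGF to control in interferon-response macrophages (vertical) against the same ratio in other macrophages (horizontal) for 120 interferon-list, 8 MHC class II, 14 monocyte and 22 hypoxia genes. The diagonal marks an equal difference in both populations. Most interferon genes lie near 0 or under the diagonal, hypoxia genes lie to the upper right along it, and MHC class II genes and Ly6c2 lie above it.

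Hypoxia genes differed by much the same in the other macrophages. Adm, Ankrd37, Ndrg1 and Bnip3, genes that low oxygen induces, were 4.20-fold, 3.95-fold, 3.54-fold and 3.17-fold higher in anti-VEGF members, and 4.12-fold, 3.40-fold, 3.24-fold and 2.90-fold higher in other anti-VEGF macrophages. Of 22 hypoxia genes 11 were called and 21 were above 0, and the glucose transporter Slc2a1 was among 4 of 16 glycolytic genes called. Nos2 was 4.85-fold higher in members (3.76 to 6.33) and 5.43-fold higher in other macrophages, and Arg1, which competes for the same amino acid, was 2.34-fold and 2.74-fold higher. Tmem176a and Tmem176b, membrane proteins of myeloid cells, stood at 0.357 and 0.383 in members and at 0.387 and 0.388 in other macrophages. Fcrls, a resident macrophage gene, stood at 0.273 (0.243 to 0.307) and 0.345, Selenop, a selenium carrier of resident macrophages, at 0.494 and 0.599, and Apoe at 0.564 and 0.601.

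For some genes the ratio was larger in the members than in the other macrophages. Cd274 was 2.26-fold higher (2.01 to 2.54), against 1.60-fold in other macrophages. Ly6c2 was 3.46-fold higher (2.61 to 4.63), against 1.53-fold, and its UMIs lay in 39 anti-VEGF and 16 control members. H2-Aa was 1.43-fold higher (1.39 to 1.47), against 0.948, and 8 of 8 class II genes measured were above 0 in members, against 1 of 8 in other macrophages. The median of 14 monocyte genes was 1.05 on the log2 scale in members and 0.48 in other macrophages, with 8 called, and it was 0.43 in members when cells with a Ly6c2 UMI were left out, an alternative added after seeing the data. The median in members was 0.36 for the top 2% of the score, 0.40 for the top 10% and 0.31 from thinned sums. So the size of the monocyte median in members depends on these choices. For the other macrophages it was computed in the main setting only, so whether the members' median stays the larger under them is unknown. Whether the members and the others differ in these ratios was not tested.

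For some genes a few cells set the value. S100a9, a calcium-binding protein of neutrophils and monocytes, stood at 172 CPM in anti-VEGF and 3.99 CPM in control members, 43.0-fold apart (30.2 to 63.6) against 4.94-fold in other macrophages, and S100a8 at 107 and 13.5 CPM, 7.87-fold apart against 3.13-fold in other macrophages. Of the 1531 S100a9 UMIs of anti-VEGF members 3 cells held 43.0%, and without cells holding at least 10 UMIs of the 2 genes together, an alternative added after seeing the data, the log2 ratio was 1.93 in place of 5.11. The summed level of the 8 neutrophil markers was 620 CPM in anti-VEGF members and 196 CPM in control members, and 1028 and 760 CPM in the other macrophages of those libraries. Mmp9, also an osteoclast gene, gave 280 and 154 CPM of this in the members and 856 and 711 CPM in the others. The part of neutrophils captured with macrophages in this was not tested. Mmp12, the macrophage elastase, was 8.82-fold higher in members (7.92 to 9.84, 420 against 47.7 CPM) and 4.98-fold higher in other macrophages, and its UMIs lay in 120 anti-VEGF and 33 control members. Gzma, a killer-cell protease, had 0 UMIs in anti-VEGF and 209 in control members, of which 1 cell held 86.6%.

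Cells outside the gate also reached the score. Among cells with more collagen UMIs than the gate allowed, 27 of 825 in the anti-VEGF library (3.27%) and 15 of 550 in the control library (2.73%) scored at or above the cut. Among cells with fewer than 5 macrophage markers 32 of 817 (3.92%) and 14 of 641 (2.18%) did, and among macrophage-marker cells with a Cd3e UMI 5 of 74 (6.76%) and 10 of 146 (6.85%). The libraries shared 35 barcodes, 4 of them belonging to an interferon-response macrophage in 1 library, and none belonged to 1 in both.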

How the data were processed

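Whole-number UMI counts per gene and barcode, deposited by the authors as 1 matrix per library, were read as they stand. The submitters' processing notes name Cell Ranger 3.0.2 and mm10, and the software version is 3.1.0 per the file headers. Depth was 213948867 UMIs over 8825 barcodes for anti-VEGF and 233687412 UMIs over 11687 barcodes for control, each barcode with at least 500 UMIs. No doublet caller was run, and likely doublets were treated as an alternative.

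UMIs were summed over the cells of a group and divided by the sum (CPM). Ratios have exact conditional binomial intervals, shares have Clopper-Pearson intervals, and all are 95% intervals of counting error only. Log2 values used a pseudocount of 1 CPM. A gene was measured with at least 30 UMIs over the groups compared (in each library, for members against others) and called past 2-fold, in both libraries where both were used. Shares of cells with a UMI were computed after thinning each cell to 5000 UMIs. With 1 library per group no test was made. Alternatives changed the cut, the gate, the score genes, the depth, the weighting of cells, the filter on low counts and the scaling.

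Genes named were the score genes, members of 43 gene lists, the 15 highest and 15 lowest genes in members and the 10 highest and 10 lowest between antibodies, among genes with at least 50 CPM found in at least 10% of cells, leaving out predicted, mitochondrial, ribosomal and similar genes. The members and lists were chosen with earlier results of these data known. Some genes of the lists are not reported here. Trex1 was listed at 0, and lists leave out unmeasured genes. The steps were tried on simulated counts with known answers. These held counting error only, with no spread between cells or animals and no choice of cells by score, so they say nothing about those limits. Promoters came from the RefSeq table, which matched 76.2% of measured genes, so motif shares over the higher and lower genes and the lists are void. Python 3.11.15, numpy 2.4.6, scipy 1.17.1, pandas 2.3.3, matplotlib 3.10.9 and, for TMM factors, edgeR 4.0.16 were used.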

Additional observations from a re-analysis of the deposited data

Results flagged for a closer look

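For 3 genes the interferon-response macrophages stood above the other macrophages in 1 library and below them in the other, by at least 1.5-fold each way. The difference between the libraries was not tested. Vsig4, a complement receptor of resident macrophages, had a ratio of 2.05 in the anti-VEGF library and 0.267 in the control library, from 55 UMIs in 8 cells and 13 UMIs in 3 cells. S100a9 had ratios of 1.96 and 0.225, from 1531 UMIs in 52 cells and 31 UMIs in 7 cells. Gpnmb, a glycoprotein of lipid-laden macrophages, had ratios of 0.626 and 1.61, from 47 UMIs in 25 cells and 43 UMIs in 10 cells.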

How the results depend on the processing

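No paired analysis was possible because each group has 1 library. The share ratio kept its direction under all 11 alternatives. The top 5% taken within each library gives no share ratio, since it fixes the shares.

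The count of genes 2-fold lower in interferon-response macrophages, 240, was 468 for the top 2% of the score, 130 with at least 7 macrophage markers, 503 with at least 10 UMIs per gene, 147 from thinned sums, and, for alternatives chosen after seeing the data, 104 without cells rich in Acp5 and Ctsk and 74 with 10 expected UMIs. Genes 2-fold higher in anti-VEGF members, 191, were 353 with at least 10 UMIs per gene, and those 2-fold lower, 138, were then 373, or 233 as a mean over cells. The other 68 of 77 values of this kind moved by less than 1.5-fold. Single genes were less steady: of 5184 values under the alternatives, 1944 lay outside the counting interval of the main value. Of 750 list medians, 572 stayed close to the main value. The cause of the changes was not tested.

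On the log2 scale, members over others changed sign in these cases. The screen left out genes under 2-fold in the main setting and very small list medians. Among the latter, hypoxia in the control library went from −0.02 to as high as 0.06. Tissue remodelling in the anti-VEGF library went from −0.02 to as high as 0.21, and glycolysis changed sign in both libraries. At the top 2% the MHC class II median was −0.12 and Gzma −2.70 in the control library, and the resident macrophage median was −0.14 and Cd163 −1.54 in the anti-VEGF library. Without cells rich in Acp5 and Ctsk the anti-VEGF values were 0.049 for the osteoclast-like list and for Mmp9, 0.18 for Acp5 and 0.44 for Ocstamp, and Mmp9 was 0.023 in the control library. In the control library, S100a9 was 0.15 without cells rich in S100a8 and S100a9. G0s2 was −0.77 in the anti-VEGF library without cells holding other-lineage UMIs. In the control library, Gzma was −1.20 and Vsig4 0.079 with cells thinned before scoring, Siglech was 0.21 for the top 10% and 0.31 for the top 5% within each library, and Gzma was −2.82 without the deepest cells, −0.42 as a mean over cells and −1.04 from thinned sums. The cause of these was not tested.

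The monocyte median between antibodies in members, 1.05 on the log2 scale, was 0.36 for the top 2%, 0.40 for the top 10% and 0.31 from thinned sums. A gene with few UMIs can pass the fold by counting error alone, and 1 library per group leaves the spread between animals unknown.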
